A study of Ovis aries with 7 samples.

Results

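CITED2, SLC2A1 and LDHA are followed here across the hypothalamus of 7 sheep fetuses after maternal hypoxia or normoxia. Every non-control probe named for one of the 3 genes was taken, which gave 3 of the 984 named genes, with 2 probes for each gene, 6 of the 15008 probes on the array. SLC2A1 stood on the array under its older name GLUT-1, described there as glucose transporter type 1, and the probes were matched through that description. In the hypoxia group (n = 3), the ewe breathed low-oxygen gas for 30 min and normal gas for the next 30 min. In the control group (n = 4), fetuses of the same age stayed at normal oxygen for both periods of 30 min. All 7 fetuses were in late gestation and carried chronic catheters, and the hypothalamus was collected 60 min after the start. Each fetus gave 1 array, labelled with Cy3 in a single colour. The question was whether transcripts of the response to low oxygen differed between the groups at that time.

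Hypoxia-inducible factor (HIF) is a pair of proteins whose alpha subunit, HIF-1alpha or HIF-2alpha, is destroyed while oxygen is plentiful and persists when oxygen falls. The persisting pair binds DNA and recruits the coactivators CBP and p300 to its target genes. CITED2 is itself a HIF target, and its protein competes with HIF-1alpha for CBP and p300, so it is known as a brake on the same response. SLC2A1 encodes GLUT1, the glucose transporter of the blood-brain barrier endothelium, which is also found in astrocytes and choroid plexus. LDHA encodes the lactate dehydrogenase subunit that favours the conversion of pyruvate to lactate. Both genes are among the classical HIF targets of glucose metabolism.

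The probes are shown because their sequences decide how far the 2 probes of a gene count as separate measurements. Capitals mark the bases that both probes of a gene share, all are written 5′ to 3′, and positions count from the first base of the transcript or expressed sequence tag from which the array's designers took the probe. The CITED2 probes were taken 1 base apart, at positions 549 and 550, so that 59 of their 60 bases are the same.
CITED2 probe 1: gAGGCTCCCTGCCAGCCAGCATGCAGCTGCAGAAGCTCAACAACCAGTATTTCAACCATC
CITED2 probe 2: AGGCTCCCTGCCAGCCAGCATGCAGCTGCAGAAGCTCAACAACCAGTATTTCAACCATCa
The SLC2A1 probes were likewise taken 1 base apart, at positions 1539 and 1540, and also share 59 of 60 bases. Their first 30 bases are given.
SLC2A1 probe 1: tAATCTGTAGGGGCGGACTATGACTAAGGA
SLC2A1 probe 2: AATCTGTAGGGGCGGACTATGACTAAGGAC
The LDHA probes lie apart on their sequence, at positions 392 and 849, and share no stretch, so they carry no capitals.
LDHA probe 1: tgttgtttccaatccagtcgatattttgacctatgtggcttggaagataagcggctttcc
LDHA probe 2: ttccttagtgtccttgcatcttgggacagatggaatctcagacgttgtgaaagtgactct
The CITED2 probes were the richest in G and C, at 55% and 53.3%, against 41.7% to 45% for the other 4 probes. Close agreement between the 2 probes of CITED2 or of SLC2A1 is therefore mainly a repeat of 1 measurement on the same RNA, whereas the LDHA probes read separate stretches of the transcript.

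A level below is the log2 of the processed spot signal minus the log2 of the array's 75th percentile over non-control spots, a percentile that lay between 2024 and 2908 signal units. Levels of different probes are not comparable with each other, since each probe binds with its own strength. All 6 probes were well above background on all 7 arrays. Slide 1 held only the 3 hypoxia arrays, slide 2 held control replicates 1 and 2 and slide 3 the other 2 controls, so slide and group cannot be told apart. Of 16 hypothalamic markers, 10 were measured, and among them the neuropeptide genes POMC, NPY, AGRP and OXT were well above background on all 7 arrays. NR5A1, another of the 10, was so on only 4. Marker levels also varied between fetuses: OXT was at -1.12 in control replicate 4, against 1.84 to 2.57 in the other controls. Markers of neurons at large and of oligodendrocytes were not analysed here. Only 1607 of the 15008 probes could be given a gene name. Here and below, a listed gene is called measured where a named probe of it was tested. Listed genes that the array may carry only on unnamed probes are therefore not counted. Across the array, 2 of 12710 tested probes (0.0157%) passed an adjusted p of 0.05 in limma, and neither carried a gene name. The median difference over all tested probes was 0.03 on the log2 scale.

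CITED2 had the clearest separation of the 3 genes: both of its probes stood higher in every hypoxia fetus than in every control fetus. The group means differed by about 1.32-fold on both probes. Neither probe passed the adjusted threshold in limma, and no probe of SLC2A1 or LDHA did, while both CITED2 probes and none of the other 4 had an unadjusted p under 0.05. Over all tested probes, 15.7% had such a p. Probe 2, the brighter of the pair and the one that stands for the gene below, had levels of -2.47, -2.35 and -2.42 in the hypoxia fetuses, against -2.84, -2.79, -2.74 and -2.91 in the control fetuses. The groups did not overlap, with a gap of 0.27 between the lowest hypoxia and the highest control level, larger than the range of 0.11 within hypoxia or of 0.18 within control. Of all tested probes, 16.2% also had groups that did not overlap, 8.76% with hypoxia higher, so separation of this kind was common on these arrays. The means were -2.41 ± 0.06 in hypoxia and -2.82 ± 0.07 in control (SD, n = 3 and 4). The difference of 0.41 had a standard error of 0.09, a 95% interval of 0.18 to 0.63 and a fold of 1.32, with an interval of 1.14 to 1.54. In limma the unadjusted p was 0.0031 and the adjusted p was 0.162 over all tested probes. An exact permutation test over the 35 splits of the arrays gave a 2-sided p of 0.0571, taken by doubling the smaller directional p. That is the smallest value such doubling allows with 3 against 4 arrays, so this form of the test could not reach 0.05.

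CITED2 probe 1 had levels of -2.49, -2.44 and -2.55 in hypoxia, against -2.75, -2.77, -3.07 and -2.97 in control. Here too every hypoxia array was above every control array, by a gap of 0.20. The difference was 0.40 with a standard error of 0.12 and an adjusted p of 0.210 in limma. Against the controls of slide 2 alone the difference was 0.27, and against those of slide 3 alone it was 0.53, because control replicates 3 and 4 read lower than control replicates 1 and 2 on this probe. The controls of the 2 slides differed by -0.26, slide 3 minus slide 2, with a standard error of 0.13. On probe 2 the same comparison gave 0.40 and 0.41, and the controls of the 2 slides differed by -0.01. The 2 probes disagreed most in control replicate 3, where probe 2 read 0.33 above probe 1, while on the other 6 arrays probe 2 read between 0.09 below and 0.12 above it. In signal units, CITED2 probe 2 lay between 289 and 470, well under the 75th percentile of any array.

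**Figure D1:**
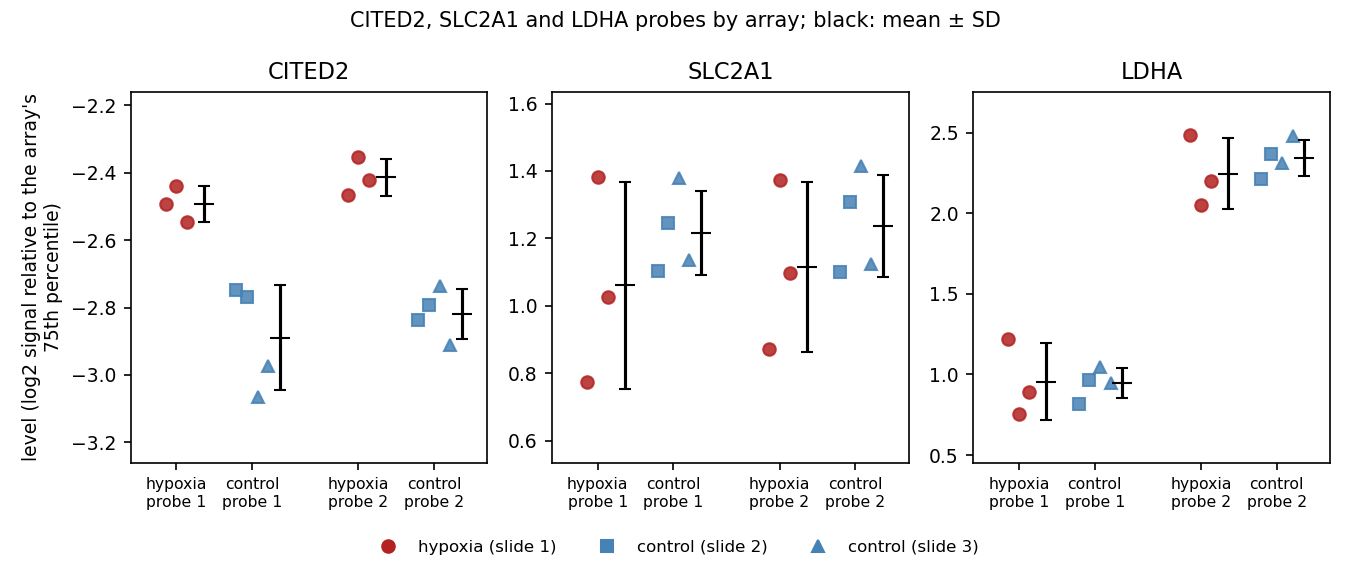
Levels of the 6 probes of CITED2, SLC2A1 and LDHA on each array, as log2 signal relative to the array's 75th percentile, with the mean and SD of each group in black and a separate vertical scale for each gene. Both CITED2 probes have all 3 hypoxia arrays (slide 1) above all 4 control arrays (slides 2 and 3), while the groups overlap for both probes of SLC2A1 and of LDHA.

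SLC2A1 was not separated between the groups. Probe 2, the brighter, had levels of 0.87, 1.37 and 1.10 in hypoxia, against 1.10, 1.31, 1.41 and 1.12 in control. Hypoxia replicate 1 was the lowest of all 7 arrays, while hypoxia replicate 2 was above 3 of the 4 controls. The means were 1.11 ± 0.25 in hypoxia and 1.24 ± 0.15 in control (SD, n = 3 and 4). The difference was -0.12, with a standard error of 0.15, a 95% interval of -0.47 to 0.23, an adjusted p of 0.716 in limma and an exact permutation p of 0.457. The interval corresponds to folds between 0.722 and 1.17, so neither a modest fall nor a small rise is resolved by these 7 arrays. Without hypoxia replicate 1 the difference was -0.00, and without hypoxia replicate 2 it was -0.25.

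SLC2A1 probe 1 gave the same order of arrays within hypoxia, at 0.77, 1.38 and 1.03, against 1.10, 1.25, 1.38 and 1.14 in control. Its difference was -0.15 with a standard error of 0.16 and an adjusted p of 0.660 in limma, and it was -0.01 without hypoxia replicate 1 and -0.32 without hypoxia replicate 2. The 2 SLC2A1 probes moved closely together, and the SD of their difference over the 7 arrays was 0.04. Among 197 tested pairs of probes shifted by 1 base, the median of that SD was 0.14, and the CITED2 pair stood at 0.13.

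LDHA did not differ beyond the spread between fetuses on either of its probes. Probe 2, the brighter, had levels of 2.49, 2.05 and 2.20 in hypoxia, against 2.21, 2.37, 2.31 and 2.48 in control. The highest and the lowest of the 7 values were both hypoxia arrays, replicate 1 and replicate 2. The means were 2.25 ± 0.22 in hypoxia and 2.34 ± 0.11 in control (SD, n = 3 and 4). The difference was -0.10 with a standard error of 0.13, a 95% interval of -0.41 to 0.22, an adjusted p of 0.756 in limma and an exact permutation p of 0.571. In folds the interval ran from 0.755 to 1.16. Probe 1, from a separate stretch of the transcript, had levels of 1.22, 0.75 and 0.89 in hypoxia, against 0.82, 0.97, 1.05 and 0.95 in control. It put the same hypoxia fetus highest and the same one lowest, and its difference was 0.01 with a standard error of 0.13. The differences of the 2 LDHA probes were 0.10 apart. Within arrays, probe 2 minus probe 1 was 1.27 to 1.31 in hypoxia and 1.26 to 1.53 in control, which overlap.

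A further probe was placed by the array's designers in the same sequence cluster as the LDHA probes but carried no gene name, so it lies outside the rule that chose the members. Its levels were 3.18, 2.71 and 3.07 in hypoxia, against 3.37, 3.37, 3.43 and 3.27 in control. All 3 hypoxia arrays were below all 4 control arrays, with a gap of 0.09, as in 7.44% of the tested probes. The difference was -0.37 with a standard error of 0.13, a 95% interval of -0.68 to -0.06 and an adjusted p of 0.263 in limma. Without hypoxia replicate 2, the lowest array, it was -0.23. Within arrays, its level minus that of LDHA probe 2 differed by -0.28, hypoxia minus control, with an exact permutation p of 0.114 over 35 splits. Whether this probe reads another form of the LDHA transcript or another transcript was not tested.

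**Figure D2:**
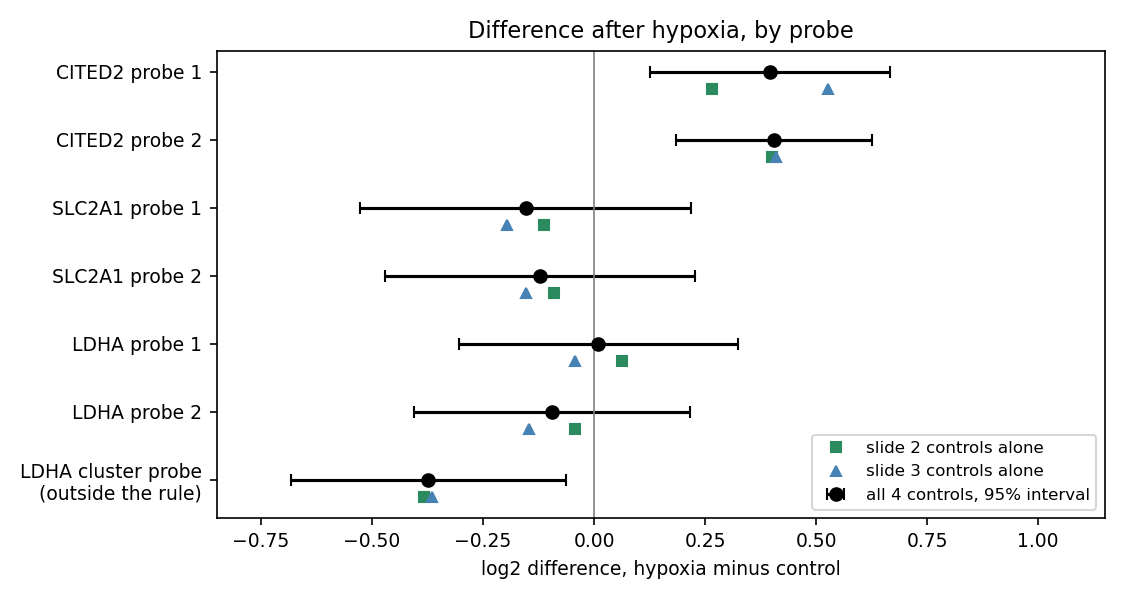
Difference in level, hypoxia minus control, for the 6 probes and the unnamed probe of the LDHA cluster, with the 95% interval from limma in black and the differences against the controls of slide 2 (squares) and slide 3 (triangles) beneath. The intervals of both CITED2 probes lie above 0 before any adjustment over the array, those of SLC2A1 and LDHA span 0, and that of the LDHA cluster probe lies below 0.

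Whether the 3 genes differed from each other in their response was examined within arrays, where any scaling of the array cancels. CITED2 minus SLC2A1 averaged -3.53 ± 0.20 in hypoxia and -4.06 ± 0.09 in control (SD, n = 3 and 4), a difference of 0.53 with groups that did not overlap. CITED2 minus LDHA averaged -4.66 ± 0.28 in hypoxia and -5.16 ± 0.16 in control, a difference of 0.50, again without overlap. The last value moved to 0.23 with normexp and quantile normalization together, with an exact permutation p of 0.171, and to 0.41 with quantile normalization and 0.44 over the mean of both probes, each with an exact permutation p of 0.114. As reported, the comparisons of CITED2 with SLC2A1 and with LDHA each had an exact permutation p of 0.0571, the smallest that the doubled p allows. After adjustment over the 3 pairs it was 0.0857. SLC2A1 minus LDHA averaged -1.13 ± 0.47 in hypoxia and -1.11 ± 0.19 in control, a difference of -0.03 with an exact permutation p of 0.914. Within hypoxia that last difference ranged widely, from -1.62 in replicate 1 to -0.67 in replicate 2, because the fetus with the least SLC2A1 signal had the most LDHA signal and the fetus with the most SLC2A1 signal had the least LDHA signal. In control it lay between -1.35 and -0.90.

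The HIF subunits and regulators on the array gave a mixed picture beside CITED2. Of 31 listed genes 8 were measured, 4 higher and 4 lower in hypoxia, with a median difference of -0.02 against 0.03 over all tested probes. None passed the adjusted threshold in limma, and 1 of 8 had an unadjusted p under 0.05, compared with 15.7% of all tested probes (8.76% with hypoxia higher and 6.91% with hypoxia lower). That gene was MTOR, the kinase that promotes HIF-1alpha synthesis, at 2.61 ± 0.08 in hypoxia and 2.94 ± 0.09 in control (difference -0.33, standard error 0.10, adjusted p 0.222 in limma). Its hypoxia arrays were all below its control arrays. HIF1A, which encodes the subunit that CITED2 competes with, was at -2.43 ± 0.15 in hypoxia and -2.60 ± 0.30 in control, a difference of 0.17 with a standard error of 0.18. Its second probe differed by 0.01. EPAS1, which encodes HIF-2alpha, differed by -0.18 with a standard error of 0.16, and its other 3 probes ranged from -0.06 to 0.85. ARNT, the constant partner subunit, differed by 0.78 with a standard error of 0.69, and ARNT2, its neuronal relative, by -0.10 with a standard error of 0.19. HSP90AA1, a chaperone of the alpha subunits, differed by 0.30 with a standard error of 0.14 and an adjusted p of 0.345 in limma.

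Among the other HIF targets, 18 of 52 listed genes were measured, 7 higher and 11 lower in hypoxia, with a median difference of -0.03. None passed the adjusted threshold in limma, while 2 had an unadjusted p under 0.05 and a higher level in hypoxia, and 1 had such a p and a lower level. These 3 of 18 are near the 15.7% of all tested probes with such a p. EDN1, which encodes the vessel-constricting peptide endothelin, had levels of -0.89, 0.14 and -0.50 in hypoxia, against -1.70, -1.55, -1.29 and -2.29 in control. The hypoxia arrays were all above the control arrays, and the difference was 1.29 with a standard error of 0.30 and an adjusted p of 0.163 in limma. PLIN2, a coat protein of lipid droplets, was lower, at -1.80 ± 0.08 in hypoxia and -1.29 ± 0.06 in control, with groups that did not overlap and an adjusted p of 0.116 in limma. BHLHE40, a transcriptional repressor named here after its values were seen, differed by 0.32 with a standard error of 0.11, also without overlap. VEGFA, the vessel growth factor usually read as a HIF target, had levels of -0.98, -1.30 and -1.28 in hypoxia, against -0.82, -1.16, -1.26 and -1.25 in control. It differed by -0.06 with a standard error of 0.15. TXNIP, whose protein limits glucose uptake by removing GLUT1 from the cell surface, differed by 0.04 with a standard error of 0.19.

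The genes of glucose transport, glycolysis and lactate transport, to which SLC2A1 and LDHA belong by function, were evenly divided. Of 50 listed genes 18 were measured, 9 higher and 9 lower in hypoxia, with a median difference of 0.02. None passed the adjusted threshold in limma, and 3 had an unadjusted p under 0.05: ENO3 and PFKM with hypoxia higher, and HK1 with hypoxia lower. That share too is near the 15.7% over all tested probes. SLC2A3, which encodes the main neuronal glucose transporter GLUT3, had levels of 3.61, 4.01 and 3.73 in hypoxia, against 3.48, 3.60, 3.57 and 3.41 in control. Its hypoxia arrays were all above its control arrays, though by a narrow margin, and the difference of 0.27 had a standard error of 0.12 and an adjusted p of 0.346 in limma. SLC2A4, the insulin-responsive transporter GLUT4, had levels of -5.83, -4.82 and -4.98 in hypoxia, against -3.07, -4.89, -3.93 and -4.75 in control, which overlap. Its difference was -1.05 with a standard error of 0.47 and an adjusted p of 0.334 in limma.

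Along the glycolytic path itself, HK1, the hexokinase that traps glucose in brain cells, was at -0.06 ± 0.04 in hypoxia and 0.30 ± 0.16 in control. Its difference was -0.36 with a standard error of 0.12 and an adjusted p of 0.242 in limma, and its groups did not overlap. PFKM, a phosphofructokinase subunit named here after its values were seen, was at 0.12 ± 0.11 in hypoxia and -0.18 ± 0.12 in control, with a difference of 0.30, no overlap and an adjusted p of 0.278 in limma. ENO3, an enolase best known from muscle, differed by 0.62 with a standard error of 0.23, and its groups overlapped. ALDOA, an aldolase, and GAPDH, the next enzyme but one on the path, differed by 0.24 and 0.19, with standard errors of 0.12 and 0.11. The 4 other GAPDH probes ranged from -0.19 to 0.14. SLC16A1, the lactate carrier MCT1, differed by 0.22 with a standard error of 0.14.

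Of 10 listed transcription factors that the CITED2 protein binds or assists, or that regulate its gene, 6 were measured, 2 higher and 4 lower in hypoxia, with a median difference of -0.17. MYC, a growth-promoting transcription factor, had the smallest unadjusted p of them, at 0.014. It was at -0.24 ± 0.13 in hypoxia and 0.14 ± 0.13 in control, without overlap, with a difference of -0.37, a standard error of 0.12 and an adjusted p of 0.235 in limma. TFAP2A, for which CITED2 is a coactivator in mouse development, differed by -0.33 with a standard error of 0.17. Of 11 listed genes of insulin, energy and TXNIP control of glucose transporters, 5 were measured, 3 higher and 2 lower in hypoxia, with a median difference of 0.04. IGF1R, the receptor for insulin-like growth factors, was at -3.10 ± 0.25 in hypoxia and -2.41 ± 0.35 in control. The groups of that probe barely failed to overlap, with the highest hypoxia array at -2.826 and the lowest control array at -2.822. Its difference was -0.68 with a standard error of 0.21 and an adjusted p of 0.232 in limma, and its second probe differed by -0.25. AKT1, the kinase downstream of these receptors, differed by -0.17 with a standard error of 0.16.

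**Figure D3:**
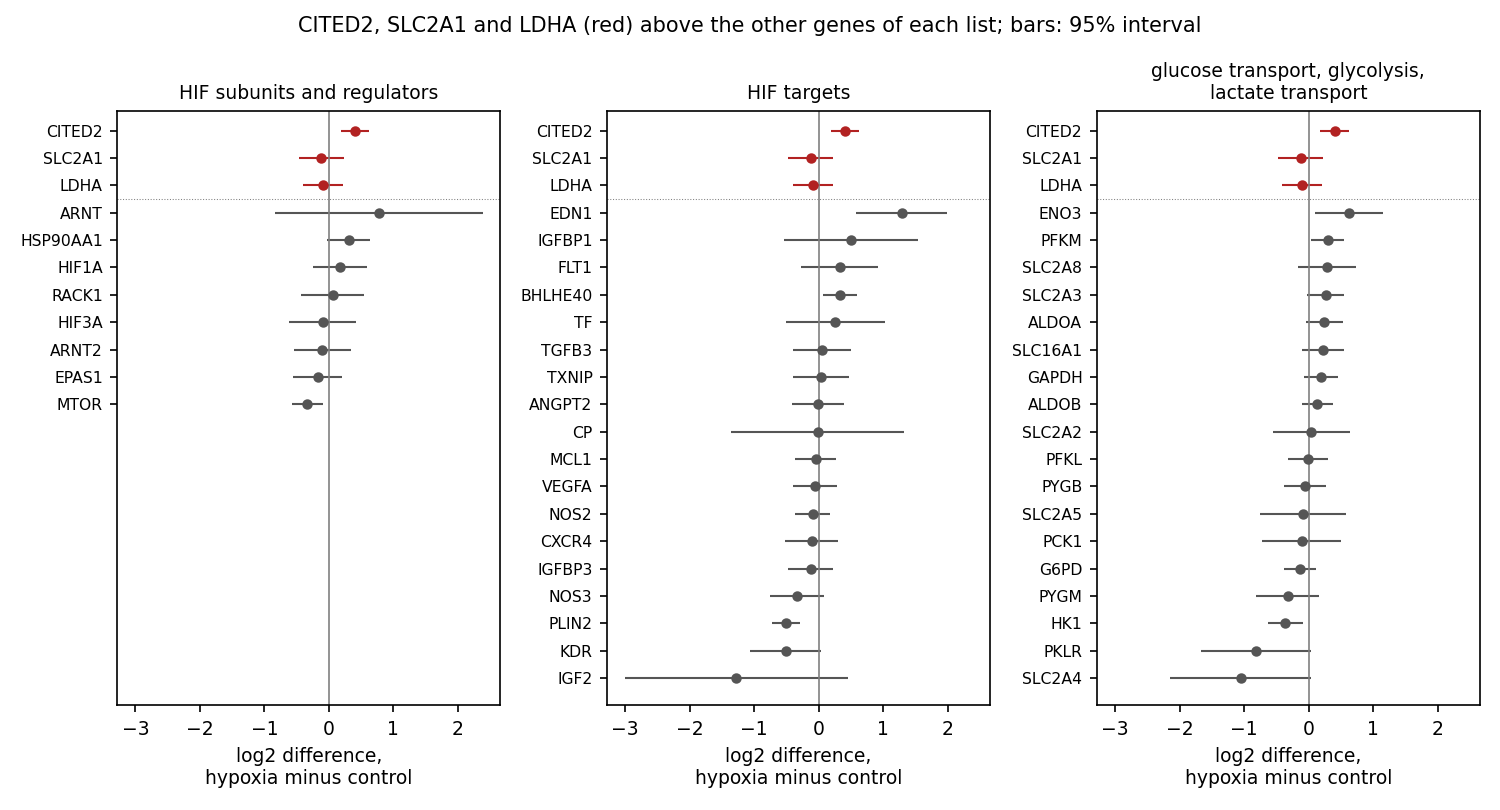
Differences in level, hypoxia minus control, of CITED2, SLC2A1 and LDHA (red, top of each panel) above the measured genes of 3 lists (grey), each with its 95% interval from limma, the probe with the highest mean level standing for each gene. Differences within each list lie on both sides of 0, and no gene shown passed an adjusted p of 0.05.

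Transcripts of cell types that carry GLUT1 were set beside SLC2A1. In bulk tissue, fewer cells of a type and less RNA per cell cannot be told apart. Of 15 endothelial markers 6 were measured, 1 higher and 5 lower in hypoxia, with a median difference of -0.27. TEK, an endothelial receptor, was the only 1 of the 6 with an unadjusted p under 0.05 in limma, near the 15.7% of all tested probes with such a p. Its difference was -0.59 with an adjusted p of 0.279, its groups overlapped, and its other 2 probes differed by -0.48 and -0.14. The summed level of the 6, from the log2 of their added relative signals, was -0.02, 0.50 and 0.41 in hypoxia, against 0.79, 0.42, 0.64 and 0.38 in control. Such a sum weights each probe by its brightness, and here it mainly follows PECAM1, at a mean of -0.25 in control. Hypoxia replicate 1, the array lowest in SLC2A1, was also lowest in this sum, whereas control replicate 1 was highest in the sum and among the lower arrays for SLC2A1. FLT1 was the member with a positive difference, and its 5 probes disagreed, from -0.53 to 0.94.

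TTR, made in quantity by choroid plexus and the only choroid and ependymal marker of 5 that was tested, varied far more than SLC2A1. Its levels were -1.77, 3.49 and -0.08 in hypoxia, against 2.18, 3.69, 1.17 and 0.56 in control. Hypoxia replicate 1 was again the lowest array and hypoxia replicate 2 among the highest, the same arrays that were low and high in SLC2A1. Control replicate 3, the highest array in SLC2A1, was lower in TTR than control replicate 1, which was among the lower arrays for SLC2A1. All 6 of the measured astrocyte markers of 8 listed were higher in hypoxia, with a median difference of 0.45. Their sums were 6.01 to 6.20 in hypoxia against 5.51 to 6.02 in control, and mainly follow the brightest probe, that of AQP4. None of the 6 passed the adjusted threshold in limma, while 3 of the 6 had an unadjusted p under 0.05, as had 8.76% of all tested probes with hypoxia higher. All 8 measured meningeal markers of 9 listed were lower, with a median difference of -0.78 and sums of 3.74 to 4.34 in hypoxia against 4.19 to 5.34 in control. Of these 8, 4 had an unadjusted p under 0.05, as had 6.91% of all tested probes with hypoxia lower, and none passed the adjusted threshold in limma. Of all 12710 tested probes, 6956 were higher and 5754 lower in hypoxia. The marker lists were chosen with earlier results of these data known. The shared direction within the astrocyte and meningeal lists may partly follow from that choice, so these counts are a description. How much endothelium, choroid plexus, astrocytes or meninges each sample held, and what part that had in the levels of the 3 genes, was not tested.

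**Figure D4:**
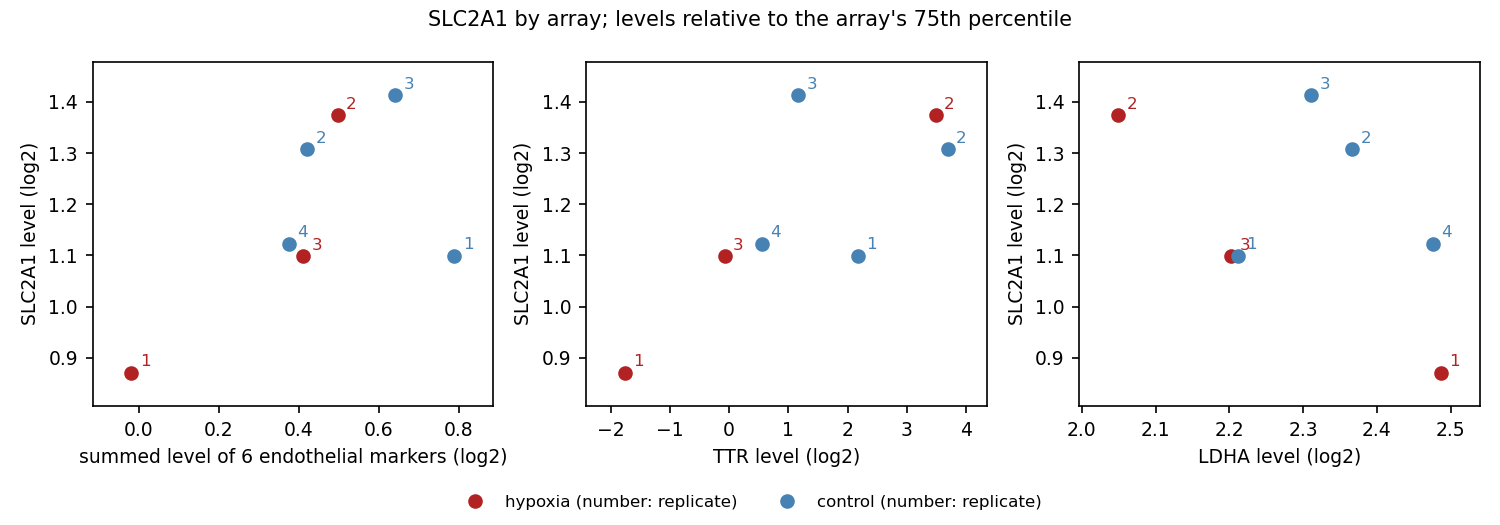
Level of SLC2A1 probe 2 on each of the 7 arrays against the summed level of 6 endothelial markers, the level of TTR and the level of LDHA probe 2, all on the log2 scale relative to the array's 75th percentile, with replicate numbers beside the points (hypoxia red, control blue). Hypoxia replicate 1 is lowest in SLC2A1, in the endothelial sum and in TTR and highest in LDHA, at 0.87, -0.02, -1.77 and 2.49.

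The patterns of the 3 genes over the arrays were unlike each other. Pearson's r over the 7 arrays was -0.10 between CITED2 and SLC2A1, -0.48 between CITED2 and LDHA and -0.50 between SLC2A1 and LDHA, all levels sharing the array's scaling. Between the probes of 1 gene it was 0.84 for CITED2, 0.98 for SLC2A1 and 0.81 for LDHA. Among 850 other named genes, those most like CITED2 over the 7 arrays were KITLG (r = 0.96), which encodes stem cell factor, EDN1 (0.96), HEXA (0.95), a lysosomal hexosaminidase subunit, CD247 (0.94), a T-cell receptor chain, and NFAT5 (0.94), a transcription factor of osmotic stress. All 5 were higher in hypoxia, by 0.35 for HEXA to 1.48 for KITLG, with adjusted p from 0.0848 to 0.225 in limma. Since the groups of CITED2 did not overlap, genes picked for likeness to it share its direction by selection. For EDN1 the order of the 7 arrays was the same as for CITED2 probe 2 from the lowest to the highest (Spearman's rho = 1). That order did not hold on CITED2 probe 1. There control replicate 3 was the lowest array, at -3.07, whereas for EDN1 it was the highest control, at -1.29.

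SLC2A1 was most like MCL1 (r = 0.94), a survival protein of the BCL2 family, RHOA (0.93), a small GTPase of the cytoskeleton, MDD2 (0.89) and SELP (0.87), the adhesion molecule P-selectin. Each of those 4 had a negative difference, from -0.05 for MCL1 to -1.17 for SELP, and adjusted p from 0.542 to 0.885 in limma. The second MCL1 probe differed by 0.97, so the 2 probes of that gene disagreed. LDHA was most like BEGAIN (r = 0.90), a postsynaptic scaffold-associated protein, SS18L2 (0.87), LYZ (0.87), which encodes lysozyme, FGF10 (0.86), a growth factor, and CAPN3 (0.86), a calpain protease best known from muscle. Their differences ran from -0.68 for LYZ to -0.03 for BEGAIN, with adjusted p from 0.271 to 0.945 in limma. With 850 genes ranked over 7 arrays, values of r this high are selected as the largest of many. The differences of the genes so picked partly follow from that selection, and both are given as a description.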

How the data were processed

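Cy3-labelled RNA from the hypothalamus of 3 hypoxia and 4 control fetuses was measured on 1-colour Agilent sheep arrays, 1 per fetus. RNA integrity numbers lay between 7.4 and 8.4, per the labels' protocols. Per the file headers, the authors took spot intensity from Agilent Feature Extraction 10.1.1.1, where background was subtracted and the signal detrended. The deposited log2 table equals the log2 of that processed intensity within 5e-09 and has no scaling between arrays. It has no direction or centring, and its column medians ran from 8.31 to 8.87. The sources used here do not give the authors' test.

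Levels are log2 processed intensity minus each array's 75th percentile. Control spots and 62 outlier values were left out. Tested were the 12710 of 15008 probes that stood well above background on 3 or more of the 7 arrays, in limma 3.58.1 (R 4.3.3), 2-sided, with Benjamini-Hochberg adjustment over all tested probes at 0.05. Single values also had an exact permutation test over all splits of the arrays, with the smaller directional p doubled. Spearman's rho was computed with scipy 1.17.1. The procedure was tested on simulated data.

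A gene is represented by whichever of its probes had the highest mean over all 7 arrays. Named were the 3 genes, a fixed set of pathway genes, the 2 of each pathway list with the smallest unadjusted p, and the 5 genes most like each of the 3, of which 1 is not reported here. BHLHE40, PFKM, PKLR, SMAD3 and the cell type markers TEK, FLT1 and TTR were named after their values were seen. The members and lists were chosen with earlier results of these data known. No genome position is given, since the files list none for these probes. Nothing in the labels says more of how replicates were raised than that each was a fetus, and the number of arrays limits the precision.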

Additional observations from a re-analysis of the deposited data

Results flagged for a closer look

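Of 37 sets of 4 control values examined, 1 had a single array far from the other 3, where chance gives about 1.85. The summed level of the 5 measured genes of insulin, energy and TXNIP control of glucose transporters was 1.59 in control replicate 1, against 1.85 to 1.90 in the other 3 controls. That sum mainly follows TXNIP, the brightest of the 5. The probes of CITED2, SLC2A1 and LDHA had no such array.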

How the results depend on the processing

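CITED2 probe 2 was higher in hypoxia under each of 23 settings tried, by 0.23 to 0.44, with adjusted p from 0.131 to 0.646 in limma, so it never passed. SLC2A1 probe 2 was lower under each, by -0.25 to -0.00. Some of these settings changed only the filter, the variance model or the blocking by slide. They left the difference itself unchanged, so their sign adds nothing. Another setting took the mean of all probes of a gene in place of probe 2. LDHA probe 2 turned to 0.00033 with normexp and quantile normalization and to 0.0034 without hypoxia replicate 2, and leaving out single arrays gave -0.216 to 0.0034. LDHA probe 1 turned to -0.0218 with the median of each array, -0.0428 against slide 3, -0.12 when hypoxia replicate 1 was left out and -0.03 when control replicate 1 was. SLC2A1 minus LDHA turned to 0.22 when hypoxia replicate 1 was left out and 0.04 when control replicate 3 was, and leaving out single arrays gave -0.26 to 0.22. The cause of these turns was not tested.

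The number of probes past the adjusted threshold, 2 in the reported setting, was 0 with a 75th percentile taken over only those probes that all 7 arrays detected, with no filter and with an ordinary linear model. It was 10 on the deposited log2 values, 35 with normexp and quantile normalization together (3 with quantile normalization alone), 25 with only probes seen on all 7 arrays, 57 with a trended and robust prior, 4 with array weights, 232 against slide 2 alone and 4 against slide 3 alone. Leaving out single arrays gave 0 to 6. On the deposited values, 660 probes were higher and 321 lower at an unadjusted p of 0.05, against 1113 and 878 as reported. That balance turned under other scalings, to 938 higher and 1064 lower with the median of each array, 896 and 1045 with quantile normalization, and 942 and 1040 with normexp and quantile normalization. The median of the glycolysis list, 0.02 as reported, was 0.0894 with only probes seen on all 7 arrays and 0.0878 against slide 2, and it was -0.0155 to 0.0997 when single arrays were left out.

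Replicate numbers 1 to 3 occur in both groups, with nothing to say that they pair fetuses. Deviations of same-numbered arrays correlated at 0.12, 0.09 and 0.11, and with the replicate block 0 probes passed. Slide as a random block had a correlation of -0.03. That value measures likeness within slides once group is fitted, so it cannot tell slide 1 from hypoxia. All 6 probes were well above background on all 7 arrays, whereas some list genes were so on fewer, such as PKLR on 4, SMAD3 on 5 and ARNT on 6.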
